A study of Saccharomyces cerevisiae with 222 samples.

Results

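Origins of replication on the chromosome arms of budding yeast were followed through the summits of EdU-labeled DNA that lie on them. A summit is the position of the highest signal inside a called peak of newly made DNA. A summit was taken when it fell inside an annotated origin (an autonomously replicating sequence, ARS) or at most 1 kb from one, on a nuclear chromosome other than 12, more than 50 kb from both chromosome ends and more than 40 kb from the centromere. Of 2434 summits in 6 lists, 2235 were nuclear and 651 met this rule. They marked 131 of the 352 annotated nuclear ARS features. Of the 215 ARS features whose midpoint lies on these arms, 129 held such a summit and 86 held none, and ARS231 and ARS306, whose midpoints lie just inside the centromere limit, made up the rest of the 131.

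The lists came from 3 strains of W303 background, each with 2 replicates. CDK/DDK bypass cells (YKR1447) expressed Dpb11, the phosphorylation-mimicking Sld2 variant T84D and Dbf4 from the galactose-inducible pGAL1-10 promoter, and CDK bypass cells (YKR1445) expressed Dpb11 and the same Sld2 variant without Dbf4. Control cells (E3087) carried the EdU-incorporating background that all 3 strains share and none of these constructs. All cells were arrested in G1 with α-factor in raffinose medium and received galactose for 3 h. Their release into S phase lasted 90 min, with 100 µM EdU and 200 mM hydroxyurea (HU) present. The comparison is of origins used in that S phase by strains with replication in G1 before it (bypass strains) or without (control). Prior replication in G1 and the induced proteins differ together between the strains, and their effects were not tested apart. EdU is a thymidine analog that marks new DNA, and HU starves cells of deoxynucleotides, which holds label close to the origins that fired.

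In budding yeast an origin is bound by the origin recognition complex through an AT-rich element, the ARS consensus sequence (ACS), and in G1 the complex loads the Mcm2-7 helicase there in an inactive form. At the G1 to S transition the kinase DDK (Cdc7 with its regulatory subunit Dbf4) phosphorylates the loaded helicase, and CDK phosphorylates Sld2 and Sld3 so that they bind Dpb11 and the helicase is activated. Origins differ in how early they fire, those near centromeres and those bound by the forkhead factors Fkh1 and Fkh2 tending to be early, and in HU the S-phase checkpoint keeps most late origins from firing.

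An exact ACS match was found in 51 of the 131 origins with a summit (38.9%), in 15 of the 86 arm ARS features without one (17.4%) and in 124 of all 352 nuclear ARS features (35.2%), searching both strands of each annotated feature. The median annotated length was 236 bp in origins with a summit and 241 bp in those without. The forkhead core GTAAACA, searched on both strands in the 500 bp centered on the ARS, was found at 24 of the 131 origins (18.3%), at 5 of the 86 (5.81%) and at 47 of all 352 (13.4%). Of the 65 origins called in all 6 lists, 14 (21.5%) held it. The base composition was alike, with a median AT content of 70.7% in origins with a summit and 70.5% in arm features without, and the median distance from the centromere was 202 kb and 285 kb. The midpoint lay outside annotated genes at 123 of the 131 origins and at 82 of the 86. These are descriptions of sequence, and a match is not a bound site.

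Some of the origins called in 1 strain and not in another are shown first, chosen among those with an ACS match. The match is in capitals with 25 bases on either side, 5′ to 3′ on its strand. Sequence is from the R64 assembly of the RefSeq reference (the sequence of sacCer3). Shares of such origins were close to those over all ARS features, as given below. A match was found in 1 of 4 origins called in CDK/DDK bypass alone and 3 of 3 in CDK bypass alone. It was found in 2 of 3 called in all bypass lists alone and 2 of 6 missing from CDK/DDK bypass alone. Of those shown, the first 4 were called in bypass lists and in neither control list. They were called in the CDK/DDK bypass pair alone (ARS1612), in all 4 bypass lists (ARS409, ARS419) or in both CDK bypass lists alone (ARS1307.5). Control summits lay 1267 and 1265 bp from ARS419. The next 2 shown were called in all lists but those of CDK/DDK bypass.
ARS1612, chr16:261563-261623, minus strand: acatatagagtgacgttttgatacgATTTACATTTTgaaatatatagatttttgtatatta
ARS409, chr4:212555-212615, minus strand: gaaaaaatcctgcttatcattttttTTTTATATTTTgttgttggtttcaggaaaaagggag
ARS419, chr4:567644-567704, minus strand: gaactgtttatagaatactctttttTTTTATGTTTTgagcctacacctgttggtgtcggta
ARS1307.5, chr13:159024-159084, plus strand: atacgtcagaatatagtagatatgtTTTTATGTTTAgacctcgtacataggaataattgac
ARS106, chr1:70394-70454, minus strand: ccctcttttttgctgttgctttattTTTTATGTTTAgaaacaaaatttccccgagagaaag
ARS1529, chr15:981489-981549, plus strand: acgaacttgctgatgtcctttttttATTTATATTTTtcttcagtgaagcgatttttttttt
The matches of ARS1307.5 and ARS106 are the same 11 letters, although the first was called in CDK bypass alone and the second also in control.

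The next 5 were called in every list and are among the origins whose scores differed between strains. In CDK/DDK bypass the first 3 were higher than in both other strains. ARS211 was lower there than in both on the median-centered scale described below, and ARS214 was lower than in CDK bypass alone.
ARS1127, chr11:213514-213574, plus strand: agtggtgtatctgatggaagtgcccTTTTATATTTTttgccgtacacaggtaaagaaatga
ARS1508, chr15:85323-85383, minus strand: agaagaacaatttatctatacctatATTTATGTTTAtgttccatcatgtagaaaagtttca
ARS1618, chr16:384575-384635, plus strand: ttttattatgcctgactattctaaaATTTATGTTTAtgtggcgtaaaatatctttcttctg
ARS211, chr2:326171-326231, plus strand: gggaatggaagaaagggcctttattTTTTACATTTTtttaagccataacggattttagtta
ARS214, chr2:408010-408070, minus strand: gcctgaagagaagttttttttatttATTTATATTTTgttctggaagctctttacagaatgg
The matches of ARS1508 and ARS1618 are the same 11 letters, in origins on different chromosomes.

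Forkhead cores are shown in capitals with 12 bases on either side for ARS1019 and ARS508, which had the highest mean percentiles among the origins called in all 6 lists, and for ARS430 and ARS211, which were lower in CDK/DDK bypass.
ARS1019, chr10:613150-613180, plus strand: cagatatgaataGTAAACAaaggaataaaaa
ARS508, chr5:94124-94154, plus strand: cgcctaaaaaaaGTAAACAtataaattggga
ARS430, chr4:1016794-1016824, minus strand: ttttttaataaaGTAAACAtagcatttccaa
ARS211, chr2:326074-326104, minus strand: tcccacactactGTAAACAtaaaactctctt
ARS430 held 2 such cores, on opposite strands, within the window, and the second is at chr4:1016835-1016865. ARS737, ARS418, ARS1511 and ARS428, next in mean percentile, held none, nor did ARS214 and ARS805, which were also lower in CDK/DDK bypass in 1 comparison. Cores not shown were found at ARS231, ARS1605 and ARS1614, the last of which was higher in CDK/DDK bypass.

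Each summit carries a score, −log10 of the q-value that the peak caller MACS2 gave it. A score of this kind rises with sequencing depth as well as with enrichment, and the depth of each list is unknown here, since the study's methods give 1 rough figure of reads for every sample alike. The median score of summits at arm origins was 38.2 and 45.5 in the CDK/DDK bypass lists, 114 and 156 in the CDK bypass lists and 446 and 562 in the control lists. Raw scores are therefore given per list and were not tested between lists. For comparisons they were used as a percentile among the arm summits of the same list, or as log2 relative to the median of the same list. A summit missing from a list means that no peak was called there, not that the origin did not fire.

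The CDK/DDK bypass lists held 104 and 117 summits at arm origins, against 120 and 107 in the CDK bypass lists and 106 and 97 in the control lists. Distinct origins numbered 95 and 103 in CDK/DDK bypass, 108 and 97 in CDK bypass and 103 and 89 in control. The groups overlapped in number of origins, and for the number of summits only CDK bypass and control did not overlap (difference of means 12, exact two-sided permutation p = 0.333). With all lists cut to the same length that difference was 2 summits. With 2 lists per group 0.333 is the smallest p this test can give.

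Among the arm summits alone, the share that sat on origins differed. It was 74.8% and 68.4% in CDK/DDK bypass, 52.9% and 43.1% in CDK bypass and 56.4% and 41.1% in control. The CDK/DDK bypass values lay above all 4 others, with means of 71.6% ± 4.52 in CDK/DDK bypass and 48.7% ± 10.8 in control (SD, n = 2 each, difference 22.9 percentage points, exact permutation p = 0.333, Benjamini-Hochberg adjusted p = 0.5 over the 3 contrasts). Against CDK bypass the difference was 23.6 points (exact p = 0.333, adjusted p = 0.5), and CDK bypass and control overlapped. CDK/DDK bypass exceeded control by 15.2 points without control replicate 2 and by 30.5 points without control replicate 1. The numerator was alike and the denominator was not. Arm summits more than 1 kb from an ARS numbered 35 and 54 in CDK/DDK bypass, 107 and 141 in CDK bypass and 82 and 139 in control. As a share of all nuclear summits, summits at arm origins overlapped between the groups. They made up 31.4% and 30.8% in CDK/DDK bypass, 31.0% and 25.1% in CDK bypass and 33.3% and 24.7% in control.

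**Figure D1:**
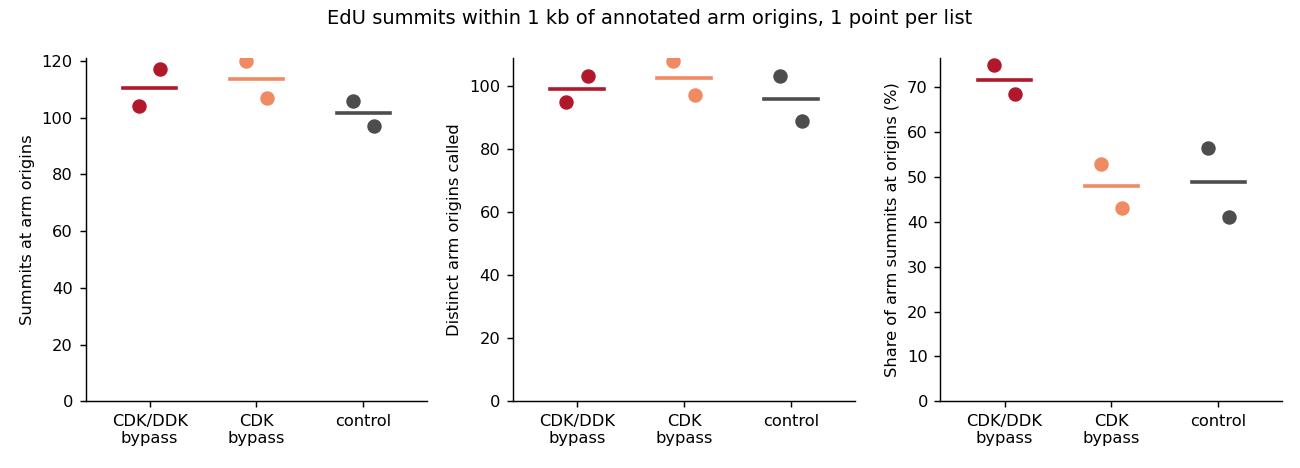
Summits within 1 kb of arm origins, distinct arm origins called and the share of arm summits at origins in percent, with 1 point for each list and a line at the group mean (n = 2). The counts of the 3 groups lie close together, and the share is above 68% in both CDK/DDK bypass lists and below 57% in the 4 other lists.

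Summits at origins had higher scores than the remaining arm summits in the median of every list. Their median percentile among all arm summits was 60.1 and 63.2 in CDK/DDK bypass, 71.1 and 73.8 in CDK bypass and 70.5 and 75.4 in control, and the median of the other arm summits lay between 25.2 and 36.7. The CDK/DDK bypass percentiles were below all others (difference from control -11.3, exact permutation p = 0.333, adjusted p = 0.5). The percentile and the share at origins are computed over the same arm summits and are not independent.

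Summits sat at different distances from the origin in different lists. In CDK/DDK bypass the median distance from the ARS midpoint was 184.5 bp in replicate 1 and 412 bp in replicate 2. It was 382 and 461 bp in CDK bypass, against 415.5 and 551 bp in control. CDK/DDK bypass and control did not overlap (difference -185 bp, exact permutation p = 0.333, adjusted p = 0.667), but the size rested on single libraries. CDK/DDK bypass replicate 1 had 36 summits inside an ARS, against 17 in replicate 2, 18 and 14 in CDK bypass and 14 and 8 in control. Without it the difference from control was -71.25 bp, and it was -298.75 bp without CDK/DDK bypass replicate 2, -252.75 bp without control replicate 1 and -117.25 bp without control replicate 2. The same library had 63.5% of these summits outside annotated genes, where the other 5 lists had 25.8 to 47.5%.

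**Figure D2:**
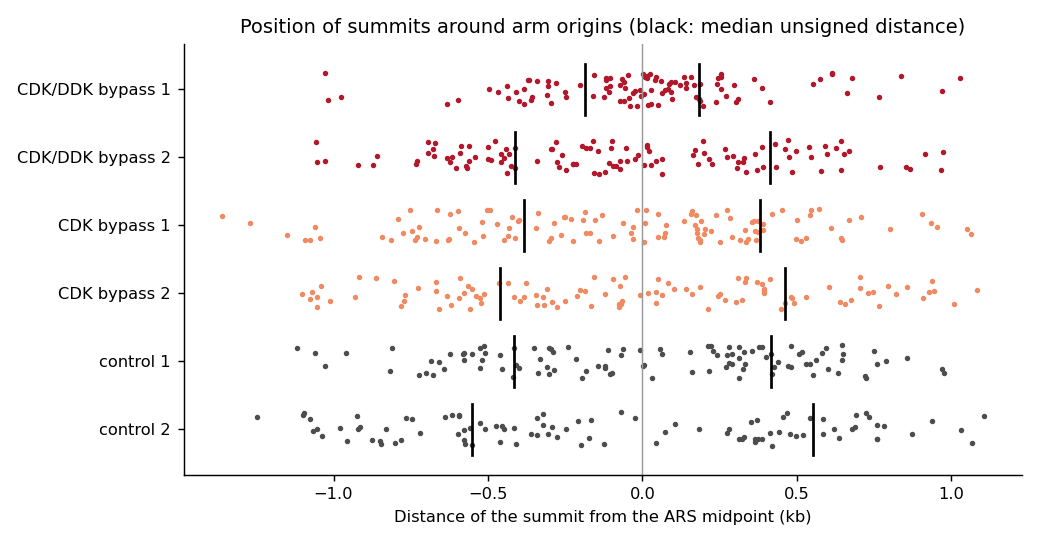
Distance in kb of every summit at an arm origin from the midpoint of its ARS, 1 row for each list, with black ticks at the median unsigned distance on both sides. Summits of CDK/DDK bypass replicate 1 have the lowest median distance, 184.5 bp, and those of control replicate 2 the highest, 551 bp.

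At the 65 origins called in all 6 lists, the highest summit lay on the same side of the ARS midpoint in every list at 21. The positions spanned a median of 802 bp over the 6 lists, from 21 to 1971 bp, with at most 100 bp at 5 origins and over 1000 bp at 22. ARS1019 and ARS1308 were the most sharply placed, each within 21 bp over all lists, about 120 bp left of the midpoint at ARS1019 (-119 and -120 bp in CDK/DDK bypass, -140 and -122 bp in CDK bypass, -120 and -123 bp in control). The highest summits of CDK bypass replicates 1 and 2 were a median of 39 bp apart, those of CDK/DDK bypass replicates 286 bp and those of control replicates 270 bp. CDK/DDK bypass replicate 2 and CDK bypass replicate 2 were a median of 49 bp apart, so that lists of different strains could lie closer together than lists of 1 strain.

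A core of 65 origins was called in all 6 lists, 17 in 5 lists, 17 in 4, 5 in 3, 10 in 2 and 17 in a single list. Both replicates called 88 of the 110 origins found in either CDK/DDK bypass list, 95 of 110 in CDK bypass and 85 of 107 in control. The 6 with the highest mean percentile among those called in all 6 lists were ARS1019, ARS508, ARS737, ARS418, ARS1511 and ARS428, whose mean percentiles ran from 98.7 ± 1.25 to 97.2 ± 2.09 (SD over 6 lists). Neighboring origins in this order were separated by less than the spread of either. ARS418 lies between VMS1 and TPI1, the gene of triosephosphate isomerase, and ARS428 next to HTB1, a gene of histone H2B. ARS1019 (chr10:612846-613278) scored 467 and 530 in CDK/DDK bypass, 2171 and 2449 in CDK bypass and 2374 and 2809 in control, and had a percentile of at least 96.6 in every list.

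Of 7 early origins known from the literature, 6 were annotated and 3 were counted with the arms, among them ARS306 through its summits. All 3 had a summit that met the rule. ARS305, ARS307 and ARS606 were not counted with the arms, and each had a summit within 1 kb in all 6 lists. ARS607 had percentiles of 96.4 and 94.7 in CDK/DDK bypass, 98.7 and 98.0 in CDK bypass and 95.2 and 99.2 in control. ARS306 had a percentile of at least 97.1 in the 5 lists that counted it. In CDK/DDK bypass replicate 1 its summit (score 341) was 46 bp from the ARS but 39973 bp from the centromere, and so just outside the rule. ARS315 was called in all lists but CDK bypass replicate 2, whose nearest summit was 1816 bp away. The late origins ARS603 and ARS1412, the 2 of 8 listed late or dormant origins that lie on the arms, had no summit within 1 kb in any of the 6 lists. At ARS603 the nearest summit was over 49 kb away in every list.

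Counts of origins called in both lists of one strain and in neither list of another were small and close to those over all annotated ARS features. Of the 88 arm origins that both replicates of CDK/DDK bypass called, 7 (7.95%) had no call in control, where the background over all nuclear ARS features was 6.43% (9 of 140). Of the 85 that both replicates of control called, 7 (8.24%) had none in CDK/DDK bypass, with a background of 10% (14 of 140). Between CDK bypass and control it was 7 of 95 for CDK bypass (7.37%, background 7.28%) and 1 of 85 for control (1.18%, background 3.57%), which was ARS429. Between the bypass strains it was 7 of 88 for CDK/DDK bypass (7.95%, background 6.43%) and 10 of 95 for CDK bypass (10.5%, background 11.9%). These counts moved when 1 list was left out, to at most 19 for CDK/DDK bypass without control and 15 for control without CDK/DDK bypass. No arm origin was called by both replicates of control and by none of the 4 bypass lists. The shares are close to those over all ARS features, and the origins behind them are given as a description.

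Both replicates of CDK/DDK bypass and no other list called ARS1507, ARS1612, ARS1625 and ARS432. ARS1507 scored 5.16 and 9.51, ARS1612 5.56 and 5.85 and ARS1625 6.13 and 10.6, with percentiles of at most 40.4 in their lists, and the nearest summit of any other list was over 11 kb away from each of them. ARS1612 lies between PEP4, encoding a vacuolar protease, and RAD53, encoding the S-phase checkpoint kinase, and ARS1625 between TKL1 (transketolase) and OPY2. ARS432 stood apart with scores of 120 and 150, with percentiles of 83.5 and 84.8. In all 6 lists a summit also lay 7.17 to 7.33 kb to its right, at ARS453, with scores of 118 and 246 in CDK/DDK bypass, 954 and 1246 in CDK bypass and 1937 and 2652 in control. In the CDK/DDK bypass lists both origins of this pair were called, and in the 4 others ARS453 alone. ARS432 (chr4:1159262-1159510) lies between HXT7 and HXT6, neighboring hexose transporter genes that are nearly identical in sequence, so placement of reads there is uncertain.

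ARS409, ARS419 and ARS421 were called in all 4 bypass lists and in neither control list. ARS409, between SCM3 (a centromeric histone chaperone) and RGT2 (a glucose sensor), scored 9.29 and 16.1 in CDK/DDK bypass and 7.28 and 6.95 in CDK bypass, and the nearest control summit was over 87 kb away. ARS421, between GIS1 and the mismatch repair gene MSH6, had scores of 3.08 and 3.17 in CDK/DDK bypass and 3.16 and 4.28 in CDK bypass, with percentiles of at most 12.5. ARS419 was the strongest of the 3, with 36.0 and 41.1 in CDK/DDK bypass and 127 and 132 in CDK bypass, but both control lists had a summit 1267 and 1265 bp from it, so its class rests on the 1 kb limit. Origins called in both CDK bypass lists alone were ARS1020 (19.9 and 24.2), ARS1307.5 (12.95 and 15.3) and ARS912 (2.53 and 3.58), all 3 with an ACS match, and the nearest summits of the other lists were more than 21 kb away. ARS1307.5 lies between HUG1 and SML1, both encoding inhibitors of ribonucleotide reductase, the enzyme that HU blocks.

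Called in all 4 lists of CDK bypass and control, and in neither of CDK/DDK bypass, were ARS106, ARS1319, ARS1322, ARS1423, ARS1427 and ARS1529. ARS1423 scored highest, with 30.1 and 41.5 in CDK bypass and 60.0 and 106 in control, and CDK/DDK bypass summits came no nearer than 4813 bp. ARS106, between CYC3 (heme lyase) and CDC19 (pyruvate kinase), scored 13.96 and 9.80 in CDK bypass and 20.2 and 12.97 in control, with no CDK/DDK bypass summit within 53 kb. ARS1529, next to REV1 of translesion synthesis, scored 14.2 and 17.6 in CDK bypass and 54.3 and 46.0 in control. ARS1322 lies inside FDO1, the only one of the 6 with its midpoint in a gene. All 6 were of middle to low rank, with percentiles between 14.9 and 62.7, and none held a forkhead core. The core was absent as well from the 4 origins called in CDK/DDK bypass alone. It was also absent from the 3 called in CDK bypass alone and the 3 called in all bypass lists alone. Over all 131 origins with a summit its share was 18.3%, so its absence from such small classes is a description.

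Not all missing calls were alike. In CDK/DDK bypass, 29 of 36 and 17 of 28 origins that a list did not call had their nearest summit over 10 kb away. In CDK bypass this held for 8 of 23 and 13 of 34, and in control for 17 of 28 and 20 of 42. The distance to the nearest summit also depends on how many summits a list holds. Arm summits numbered 139 and 171 in CDK/DDK bypass, 227 and 248 in CDK bypass and 188 and 236 in control. In control replicate 2, 17 of its 42 missing calls had a summit between 1 and 2.5 kb away, where the 5 other lists had 0 to 10. The difference in origins called between CDK/DDK bypass and control turned on the limit, being 20.5 at 500 bp, 3 at 1 kb and -5 at 2.5 kb.

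For strength at origins called everywhere, the highest score within 1 kb was expressed as log2 relative to the median of the list over the 108 nuclear ARS features called in all 6 lists, and fitted with limma. Of these, 67 were arm origins (the 65 above with ARS231 and ARS306, whose summits cross the centromere limit in some lists). In CDK/DDK bypass against control 40 of the 67 were higher and 3 lower at a Benjamini-Hochberg adjusted p below 0.05, where over all 108 features the background was 50.9% higher and 14.8% lower. In CDK/DDK bypass against CDK bypass 34 were higher and 5 lower (background 39.8% and 14.8%). In CDK bypass against control 20 were higher and 6 lower (background 27.8% and 6.48%). The median difference over arm origins was 0.81, 0.50 and 0.17 in these 3 contrasts. Over all 108 features it was 0.66, 0.34 and 0.23. These medians include the 67 arm origins and so do not tell how far the shift reached beyond the arms. With each list centered on the fitted features outside the arms, the median over arm origins was 0.97, 0.67 and 0.16 in the same order. The 2 contrasts that set CDK/DDK bypass against the other strains share its lists, and the 2 against control share the control lists.

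These counts depended on how lists were scaled. The highest score over the median at the 65 shared origins was 8.71 and 6.63 in CDK/DDK bypass, 8.84 and 7.997 in CDK bypass and 3.88 and 3.91 in control, so that the highest origins stood less far above the median in control. After quantile normalization, which gives all lists one distribution, the arm origins were 19 higher and 7 lower in CDK/DDK bypass against control (background 21.3% and 23.1%), 20 higher and 6 lower against CDK bypass (background 20.4% and 22.2%), and 0 in CDK bypass against control (background 0% both ways, 19 at an unadjusted p below 0.05). On rank percentiles they were 20 and 7 (background 22.2% and 21.3%), 20 and 4 (background 20.4% and 19.4%), and 0 (22 at an unadjusted p below 0.05). The median difference over arm origins was 0.08, 0.08 and 0.03 under quantile normalization, and over all 108 features -0.022, -0.034 and 0.0070. The CDK bypass differences from control thus passed the threshold on the median-centered scale alone, and without CDK bypass replicate 1 they numbered 2 instead of 26.

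**Figure D3:**
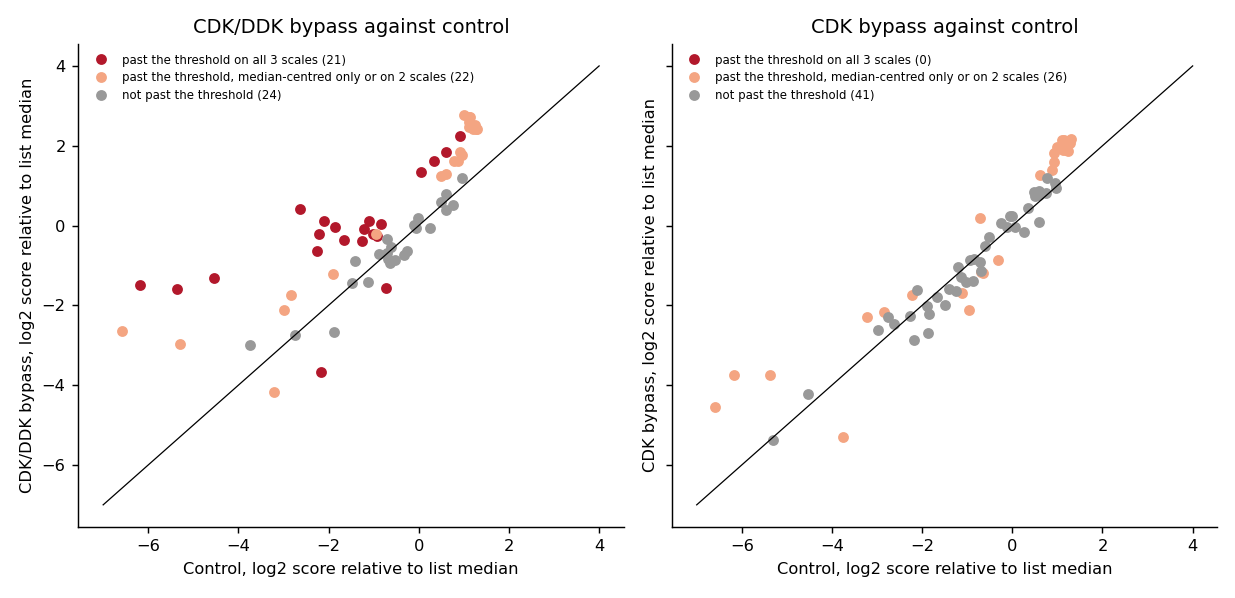
Log2 score relative to the list median at the 67 arm origins called in all lists, as group means, for CDK/DDK bypass (left) and CDK bypass (right) on the vertical axis against control on the horizontal axis, with the line of equality. Dark points pass the threshold in 1 direction on the median-centered, quantile and rank scales, 21 in the left panel and 0 in the right, and ARS1019 at the top right lies above the line in both panels on this scale.

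On all 3 scales, 19 arm origins were higher and 2 lower in CDK/DDK bypass than in control, and 19 were higher and 4 lower than in CDK bypass. Higher in both comparisons were 17: ARS414 and ARS450 on chromosome 4, ARS512, ARS514, ARS516 and ARS518 on chromosome 5, ARS714 on chromosome 7, ARS1106 and ARS1127 on chromosome 11, ARS1501 and ARS1508 on chromosome 15, and ARS1614, ARS1618, ARS1621, ARS1623, ARS1624 and ARS1627 on chromosome 16. ARS430 was the 1 origin lower in both. Counts over the 3 scales were made at arm origins alone, so no share over the 108 features stands beside them. Whether such origins are particular to the arms was not tested.

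ARS512 (chr5:212383-212631, between MIG3 and SMB1) had the largest difference of the named origins. Its raw scores were 18.97 and 37.2 in CDK/DDK bypass, 32.1 and 47.0 in CDK bypass and 14.6 and 17.8 in control. Relative to the list median these were -1.75 and -1.26 in CDK/DDK bypass, -3.85 and -3.66 in CDK bypass and -6.13 and -6.23 in control on the log2 scale. It stayed a weak origin in every list, and it was furthest below the median in control. The difference from control was 4.68 ± 0.194 (SE, adjusted p = 4.36e-06) for CDK/DDK bypass and 2.43 ± 0.194 (adjusted p = 0.000487) for CDK bypass, and CDK/DDK bypass exceeded CDK bypass by 2.25 (adjusted p = 0.000162). Under quantile normalization CDK/DDK bypass differed by 3.24 from control and by 1.64 from CDK bypass, both past the threshold, and CDK bypass from control by 1.60 (adjusted p = 0.0765).

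ARS1508 (between TRM13 and TRM11, 2 genes of tRNA methylation) behaved in the same order, with relative scores of -1.68 and -1.50 in CDK/DDK bypass, -3.67 and -3.82 in CDK bypass and -5.11 and -5.63 in control. CDK/DDK bypass was higher than control by 3.78 ± 0.202 (adjusted p = 7.68e-06). At ARS1127 and ARS1618 CDK bypass did not pass the test against control (differences 0.32 and 0.16, adjusted p = 0.147 and 0.363). ARS1127 had relative scores of -1.45 and -1.20 in CDK/DDK bypass, -4.17 and -4.28 in CDK bypass and -4.51 and -4.58 in control, a difference of 3.22 ± 0.152 from control (adjusted p = 4.36e-06) and of 2.90 ± 0.152 from CDK bypass (adjusted p = 1.35e-05). ARS1618, between YDC1 and ELP3 (a catalytic subunit of Elongator), had 0.40 and 0.43 in CDK/DDK bypass, -2.43 and -2.51 in CDK bypass and -2.58 and -2.69 in control. Its raw scores were 84.1 and 120 in CDK/DDK bypass and 85.7 and 104 in CDK bypass, against 171 and 207 in control, while the median over the 108 features was 63.6 and 88.9 in CDK/DDK bypass, 462 and 592 in CDK bypass and 1023 and 1337 in control. The difference from control was 3.05 ± 0.136 (adjusted p = 4.36e-06). The order was not the same on the percentile among all arm summits of a list, which also counts summits away from origins. There ARS512 had 46.8 and 57.3 in CDK/DDK bypass, 58.1 and 63.3 in CDK bypass and 26.1 and 38.6 in control. ARS1508 had 48.2 and 55.0 in CDK/DDK bypass, 60.4 and 62.9 in CDK bypass and 43.1 and 44.9 in control, and the 3 strains overlapped at ARS1127, with 50.4 and 59.6 in CDK/DDK bypass, 56.4 and 57.7 in CDK bypass and 47.9 and 57.2 in control. ARS1618 had 78.4 and 81.3 in CDK/DDK bypass, above 67.0 and 69.4 in CDK bypass and 60.6 and 67.4 in control. ARS1621 was higher in CDK/DDK bypass than in CDK bypass by 2.17 ± 0.166 (adjusted p = 9.16e-05) and than in control by 1.80 ± 0.166 (adjusted p = 0.000127).

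Few arm origins were lower in CDK/DDK bypass. ARS430 had relative scores of -1.69 and -1.45 in CDK/DDK bypass, -0.91 and -0.94 in CDK bypass and -0.80 and -0.64 in control, a difference of -0.85 ± 0.153 from control (adjusted p = 0.00201) and of -0.65 ± 0.153 from CDK bypass (adjusted p = 0.0104). ARS805, next to SPO11, which makes meiotic double-strand breaks, had raw scores of 3.42 and 10.1 in CDK/DDK bypass, 51.6 and 99.3 in CDK bypass and 197 and 340 in control, and was lower than in control by 1.51 on the log2 scale (difference -1.51 ± 0.368, adjusted p = 0.00813). ARS211 had raw scores of 3.08 and 5.55 in CDK/DDK bypass, 111 and 104 in CDK bypass and 136 and 117 in control. It was near the foot of the CDK/DDK bypass lists, at the 10.8th and 21.6th percentile, against the 70.5th and 69.8th in CDK bypass and the 58.5th and 64.0th in control. Its difference from CDK bypass was -1.90 ± 0.257 (adjusted p = 0.000772), past the threshold on all 3 scales, and that from control -0.97 ± 0.257 (adjusted p = 0.0113), which did not pass on the rank scale (adjusted p = 0.0675). ARS214 and ARS231, also on chromosome 2, were lower in CDK/DDK bypass than in CDK bypass by 0.70 and 0.88 (differences -0.70 ± 0.215 and -0.88 ± 0.173, adjusted p = 0.0282 and 0.00523). ARS231 was counted by the rule through control replicate 2 alone.

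In CDK bypass against control, ARS512, ARS1508, ARS1308 and ARS1019 had the lowest p among the higher origins and ARS443, ARS1605, ARS1325 and ARS1614 among the lower. ARS1019 differed by 1.00 ± 0.166 (adjusted p = 0.00735) and ARS1308 by 0.89 ± 0.135 (adjusted p = 0.00735), and ARS443 by -1.54 ± 0.293 (adjusted p = 0.00792). None of the 8 passed on the quantile or the rank scale. Of the origins of highest rank, ARS418, ARS737 and ARS1511 were higher in CDK bypass than in control by 0.78, 0.79 and 0.64 on the median-centered scale, while the differences were below 0 and not past the threshold by quantile normalization and by rank.

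**Figure D4:**
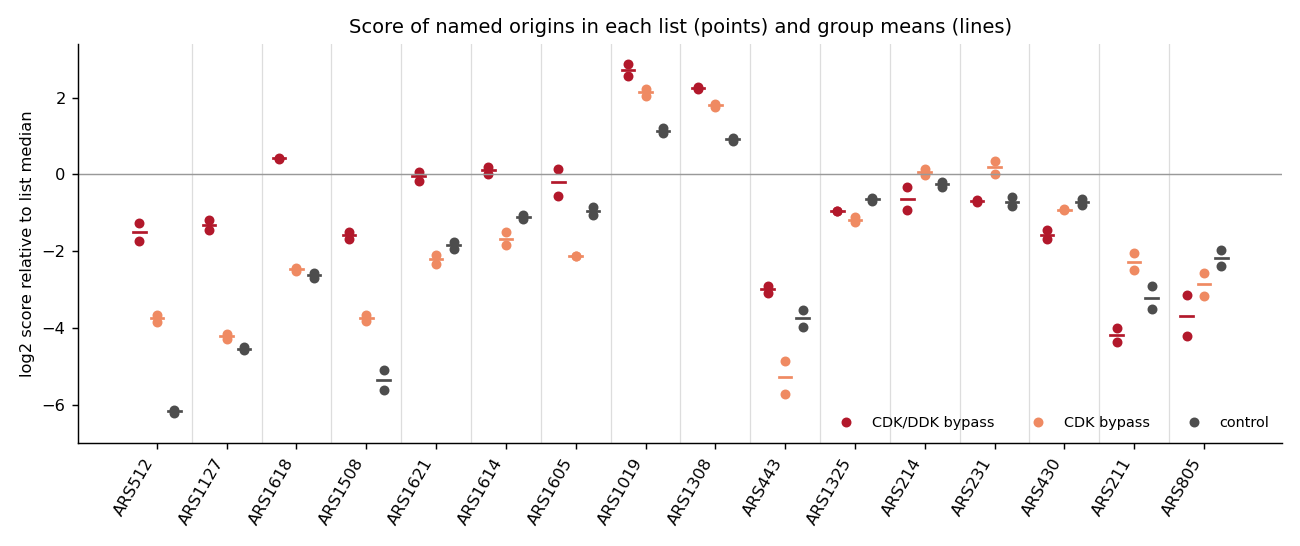
Log2 score relative to the list median of 16 named origins in each list (points) with group means (lines), CDK/DDK bypass, CDK bypass and control from left to right within each origin. ARS512 runs from -1.26 in CDK/DDK bypass to -6.23 in control, and the means of ARS211 and ARS805 are lowest in CDK/DDK bypass.

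Differences varied by chromosome. On chromosome 16 all 8 fitted arm origins were higher in CDK/DDK bypass than in CDK bypass (median difference 1.60), each past the threshold, and 7 of the 8 higher than in control (median 1.25). CDK bypass against control had a median of -0.24 there, with 2 lower and 0 higher. Under quantile normalization 7 of the 8 remained past the threshold against CDK bypass (median 1.39) and 6 against control (median 1.07). On chromosome 2 the medians over 5 arm origins were -0.70 against CDK bypass, with 3 lower and 0 higher, and -0.38 against control, with 1 lower. Chromosomes 4 and 5 had medians of 1.36 and 1.08 against control over 8 origins each, and of 0.33 and 0.52 under quantile normalization. Chromosomes were singled out after their values were seen, and no test was made of them.

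The calls varied by chromosome as well. Chromosome 16 had 13 and 12 arm origins called in CDK/DDK bypass, 10 and 11 in CDK bypass and 10 and 8 in control. Chromosome 4 had 15 and 16 in CDK/DDK bypass, 14 and 13 in CDK bypass and 12 and 9 in control. On chromosome 13 it was 6 and 8 in CDK/DDK bypass, 11 and 10 in CDK bypass and 10 in each control list, and on chromosome 14 it was 4 and 3 in CDK/DDK bypass, 7 and 4 in CDK bypass and 6 in each control list. Of the 6 origins missing from CDK/DDK bypass alone, 4 lay on chromosomes 13 and 14.

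**Figure D5:**
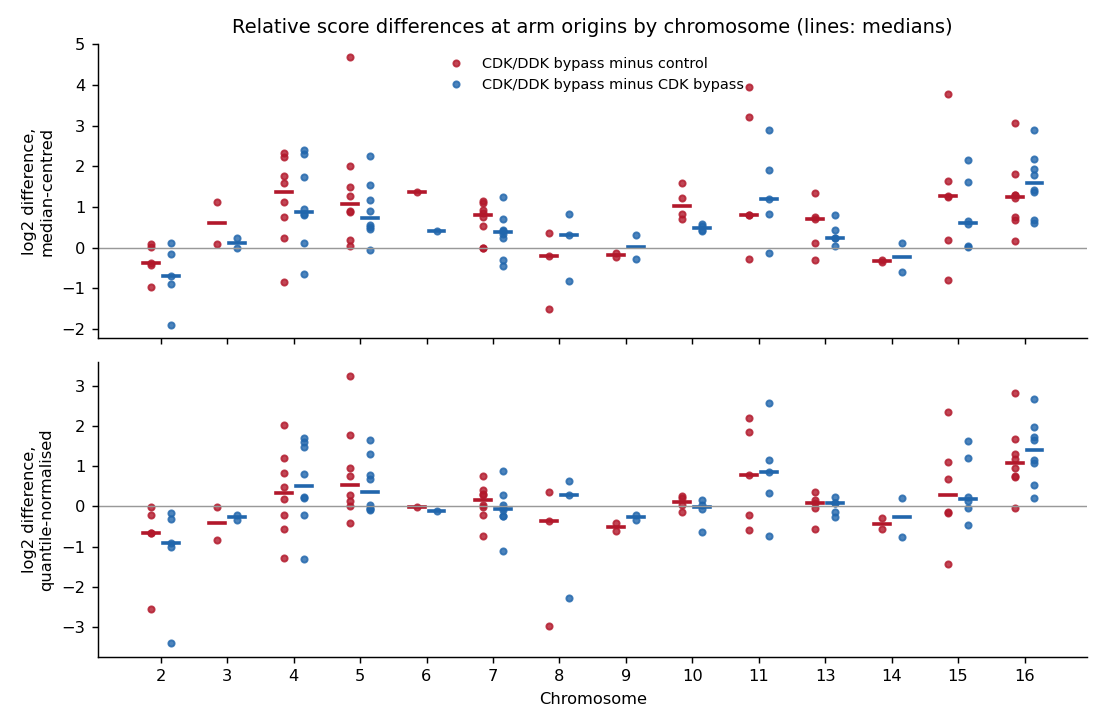
Log2 difference in relative score of CDK/DDK bypass minus control and CDK/DDK bypass minus CDK bypass for each arm origin, by chromosome, with lines at the median, on the median-centered scale (top) and after quantile normalization (bottom). All 8 origins of chromosome 16 lie above 0 against CDK bypass on both scales, with medians of 1.60 and 1.39, and the medians of chromosome 2 are below 0 in both panels.

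At the limit of the rule, the farthest summits counted were those of CDK bypass replicate 1 at 998 bp from ARS1423 (score 10.1) and 998 bp from ARS427 (score 5.52). Just outside lay summits at 1002 bp from ARS413 in CDK bypass replicate 1 (score 260) and at 1012 bp in CDK/DDK bypass replicate 2 (score 123). ARS413 was therefore counted in CDK/DDK bypass replicate 1 and control replicate 1 alone, although all 6 lists had a summit at most 1025 bp from it. Over all arm summits, 107 lay inside an ARS, 196 up to 250 bp away, 172 from 250 to 500 bp, 176 from 500 to 1000 bp, and 57 in the next 500 bp.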

How the data were processed

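EdU-labeled DNA of 6 libraries was used here, and the other 216 of the 222 samples were not analysed. According to the study's methods and processing notes, the authors aligned paired-end reads to sacCer3 with BWA 0.7.17-r1188 and called peaks with MACS2 2.2.7.1 for each sample against its own total DNA, at a stated q-value limit of 0.1, without pooling replicates. The deposited lists give each summit and its score, which is −log10 of the q-value. The lists hold no read counts and the methods give 1 rough figure of reads for every sample alike, so depth per list is unknown and no counting error is given. Nothing in the labels says whether replicates are separate cultures, and p-values measure the spread between these samples.

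ARS features, genes and sequence came from the RefSeq R64 assembly, and no summit lay beyond a chromosome end. Positions are counted from 1. Group means were compared by exact permutation (6 assignments), and relative scores by limma 3.58.1 in R 4.3.3, fitted on all lists together with Benjamini-Hochberg adjustment over the 108 features at 0.05, after checks on simulated data. Alternatives were a score of at least 2, equal list length (318 summits), ARS distances of 500 bp and 2.5 kb, other scalings and summits, each list left out, and the replicate block.

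Origins named were the 6 of highest mean percentile, those of the classes called by strain, up to 4 in each direction with the lowest adjusted p, listed early and late origins, and those at the 1 kb limit. Origins, lists and tests were chosen with earlier results of these data known.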

Additional observations from a re-analysis of the deposited data

Results flagged for a closer look

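At 3 origins the bypass strains differed from control in opposite directions, each past the threshold, and the difference between the strains was itself tested (limma, adjusted over 108 features). At ARS1605 CDK/DDK bypass was above control by 0.75 and CDK bypass below it (-1.17), and the strains differed by 1.92 (adjusted p = 0.000523). At ARS1614 the values were 1.21 for CDK/DDK bypass and -0.57 for CDK bypass, a difference of 1.78 (adjusted p = 0.000184). At ARS211 they were -0.97 for CDK/DDK bypass and 0.93 for CDK bypass, a difference of -1.90 (adjusted p = 0.000772). The difference between the bypass strains passed on the quantile and rank scales too at all 3, whereas the CDK bypass difference from control passed on neither. The CDK/DDK bypass difference from control passed on all 3 scales at ARS1614, on the median-centered scale alone at ARS1605 and not by rank at ARS211, so the opposite directions rest on the median-centered scale.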

How the results depend on the processing

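A minimum score of 2 changed no direction and no count of origins by over 1.5 times. With lists cut to equal length (318 summits), CDK/DDK bypass minus CDK bypass turned to 7 summits and 1.5 origins, CDK bypass minus control was 2 summits and 0.5 origins, the share of CDK bypass minus control to 2.43 points, and origins of CDK bypass without a control call numbered 3. At 500 bp, CDK/DDK bypass minus control was 23 summits and 20.5 origins, and CDK/DDK bypass minus CDK bypass was 12.5 summits and 11 origins. CDK bypass minus control was 0.0267 points in share and 0.979 in percentile at this limit. Origins of CDK/DDK bypass without a CDK bypass call numbered 15 there, and origins of control without a CDK bypass call 2. Only 28 arm origins had a score in every list at 500 bp, against 67 at 1 kb. CDK/DDK bypass minus control passed the threshold at 22 of the 28, and CDK bypass minus control at 10. CDK/DDK bypass minus CDK bypass passed at 22 of them. At 2.5 kb, CDK/DDK bypass minus control was -5 origins and CDK bypass minus control 1.94 in percentile. Scores past the threshold numbered 26 for CDK/DDK bypass minus control and 0 for CDK bypass minus control by quantile normalization, and 27, 0 and 24 for the 3 contrasts by rank. The cause of these changes was not tested.

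Of the 67 arm origins, differences turned sign by both quantile normalization and rank at 15 for CDK/DDK bypass minus control (7 of them past the threshold when median-centered), 12 for CDK bypass minus control (4) and 18 for CDK/DDK bypass minus CDK bypass (3). Named origins past the threshold among these (log2 by quantile normalization, percentile points by rank) were, for CDK/DDK bypass minus control, ARS1511 (-0.13 and -3.24), ARS306 (-0.82 and -7.41), ARS607 (-0.013 and -0.463) and ARS737 (-0.22 and -6.02). For CDK bypass minus control they were ARS1511 (-0.27 and -7.41), ARS418 (-0.052 and -1.85), ARS737 (-0.12 and -3.24) and, by quantile normalization alone, ARS306 (-0.50). For CDK/DDK bypass minus CDK bypass it was ARS1019 (-0.63 and -1.85).

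Leaving out 1 list at a time, CDK/DDK bypass minus control ranged over 2.5 to 15.5 summits, -4 to 10 origins, 15.2 to 30.5 points in share, -298.75 to -71.25 bp in distance, -13.8 to -8.86 in percentile and 42 to 49 scores past the threshold. CDK/DDK bypass minus CDK bypass ranged over -9.5 to 3.5 summits, -9 to 2 origins, 18.8 to 28.5 points, -237 to -9.5 bp, -12.4 to -9.31 in percentile and 21 to 44 scores. CDK bypass minus control ranged over 5.5 to 18.5 summits, -0.5 to 13.5 origins, -8.38 to 6.90 points, -129.5 to 6 bp, -2.96 to 1.99 in percentile and 2 to 35 scores. Origins called by both replicates of a strain and not by another ranged from 7 to 19 (CDK/DDK bypass, not control), 8 to 15 (control, not CDK/DDK bypass), 8 to 14 (CDK bypass, not control), 1 to 6 (control, not CDK bypass), 7 to 15 (CDK/DDK bypass, not CDK bypass) and 11 to 21 (CDK bypass, not CDK/DDK bypass). The lone list left in a strain is assumed to vary like the others in the fit.

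Replicate numbers may not pair the samples. Deviations from group means correlated across features at 0.36 (CDK/DDK bypass with CDK bypass), 0.17 (CDK/DDK bypass with control) and 0.44 (CDK bypass with control), but there are 2 numbers only. With the replicate block, 47 scores passed for CDK/DDK bypass minus control, 34 for CDK bypass minus control and 47 for CDK/DDK bypass minus CDK bypass. The block cannot change a difference of group means of counts, shares or distances, so it is no check on those. The depth of each list, which is unknown here, limits every score and call.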
